A study of Mus musculus with 4 samples.

Results

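The 137 genes described here are the neighbours of Kdm1a, the gene of the histone demethylase LSD1, on mouse chromosome 4. They are the protein-coding genes whose midpoint lies within 5 Mb of the midpoint of Kdm1a (chr4:136550540-136602723, GRCm38, minus strand) and that reached 0.5 RPKM in at least 2 of the 4 samples. RPKM gives the reads on a gene for each kb of its exons, relative to the mapped reads in that sample. Of 184 protein-coding genes of this window that were listed in at least 1 sample, 6 were left out by name (Kdm1a, C1qa, C1qb, C1qc, Rpl11 and Sdhb) and 41 were below the expression minimum, so 137 remained, out of 18436 tested genes of the whole genome, 13693 of them protein-coding. The samples were hippocampus of male C57BL/6 mice, 2 wild-type (WT) and 2 homozygous *Lsd1* knock-in (KI) littermates. The KI allele encodes an LSD1 in which the serine that the kinase PKCα phosphorylates is replaced by alanine, and it is present in all cells. An age of 8 to 15 weeks is stated for the mice of the behavioural experiments and not for the RNA samples themselves. Whether a sample is 1 animal or a pool, in which strain the allele was made, and how far it was backcrossed are not given in the sources used here. P-values therefore measure only the spread between these samples, and with 2 against 2 an exact permutation test of a single gene cannot go below p = 0.333.

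LSD1 removes methyl groups from lysines of histone H3 and, as part of complexes with CoREST and histone deacetylases, takes part in the repression and activation of genes. A knock-in mouse carries its changed allele together with a stretch of the surrounding chromosome, which descends from the same targeted cell. Genes near a targeted locus are for this reason usually looked at separately from those on other chromosomes. The neighbours of Kdm1a are a mixed set with no common function, among them ephrin receptors, a Wnt ligand, a nucleosome-binding protein, small GTPases, kinases, splicing factors, mitochondrial enzymes and ubiquitin ligases.

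Depth worked out from the whole-read steps of the values was 13.41, 8.83, 14.38 and 14.95 M reads in WT 1, WT 2, KI 1 and KI 2, so that WT 2 is the least precise sample. All 8 hippocampal neuron markers were expressed, with summed levels of 384.8 to 400.5 RPKM. Of these, 2, the dentate granule cell genes Prox1 and C1ql2, had lower values in either KI sample than in either WT sample. Dkk3 went the other way, at 119.2 and 124.4 RPKM in WT and 130.9 and 127.5 RPKM in KI, and the remaining markers of the list overlapped. In bulk tissue, fewer cells of a type and less RNA per cell cannot be told apart. Of the 4 choroid plexus markers, Ttr (transthyretin) was at 8.13 and 13.9 RPKM in WT and at 51.3 and 8.89 RPKM in KI. KI 1 thus stood apart for Ttr. Kl was higher in both KI samples, at 4.87 and 5.14 RPKM in WT and 7.05 and 6.72 RPKM in KI. Folr1 and Kcnj13 stayed below 0.6 RPKM in all samples. Summed oligodendrocyte markers ranged from 580.7 to 764.4 RPKM with no separation of the groups. The part of these differences in the values below was not tested. Kdm1a itself was at 11.6 and 11.2 RPKM in WT and 10.97 and 11.2 RPKM in KI (log2 fold change -0.039, adjusted p = 0.872 by limma). As only a serine codon is changed, its level does not check the genotype labels.

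Among the neighbours of Kdm1a, Hmgn2 had by far the largest difference between the genotypes, and the others lay between -0.52 (Rsg1) and 0.60 (Pafah2) on the log2 scale. No neighbour passed the test in the limma fit over all 18436 genes (adjusted p below 0.1 and a 1.2-fold difference or more), which called 0% of all tested genes. The log2 fold changes, KI minus WT on the log2(RPKM + 1) scale, had a median of 0.041 over the 137 neighbours and of 0.013 over all tested genes, and 68 neighbours lay between -0.1 and 0.1. After quantile normalization these medians were 0.0099 and -0.0093. Both KI samples were above both WT samples for 39 neighbours (28.5%) and below them for 30 (21.9%), against 24.7% and 19% of the protein-coding tested genes and 24% and 18.1% of all tested genes. Groups lay apart in either direction for 50.4% of the neighbours, for 43.7% of the protein-coding genes and for 42.2% of all tested genes. Higher and lower neighbours numbered 33 and 33 after quantile normalization, for which the shares over all genes are not given here. A difference of at least 1.2-fold on the same scale was seen for 23 neighbours (16.8%; 17 higher and 6 lower in KI), beside 7.08% of the protein-coding genes (5.19% higher, 1.88% lower) and 13.1% of all tested genes (8.73% higher, 4.41% lower). Of these 23, 21 also had groups that did not overlap. Leaving out the 4 genes that reached the expression minimum in 1 group only, the count was 20 of 133 (15.04%; 16 higher and 4 lower).

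**Figure D1:**
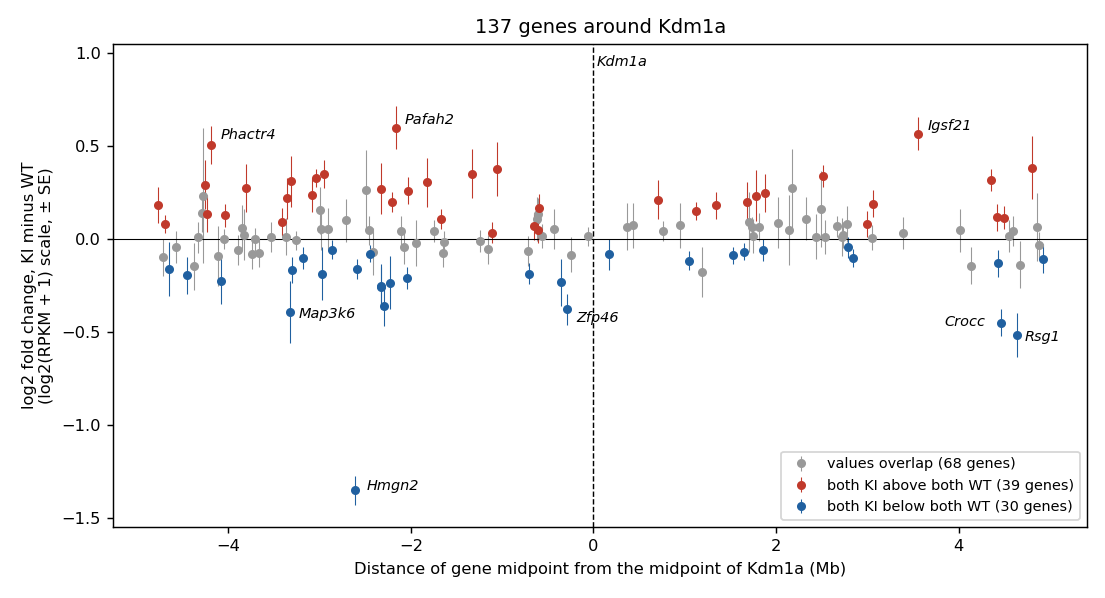
Log2 fold change (KI minus WT, log2(RPKM + 1) scale, ± SE from limma, n = 2 per group) of each of the 137 genes against the distance of its midpoint from that of Kdm1a in Mb, with red points for both KI samples above both WT samples, blue for both below, and grey for overlapping values. Of the points, 68 lie between -0.1 and 0.1, and Hmgn2 at -1.35 is separated from all others, the next lowest being Rsg1 at -0.52.

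Hmgn2 encodes a small protein of the high mobility group that binds nucleosomes and loosens chromatin. The gene (ENSMUSG00000003038, chr4:133964738-133968650, minus strand) has its midpoint at -2.61 Mb, on the side of lower coordinates. It was at 10.1 and 9.29 RPKM in the WT samples and at 3.23 and 3.15 RPKM in the KI samples, which is 9.71 ± 0.596 RPKM (SD, n = 2) against 3.19 ± 0.0559 RPKM (SD, n = 2). The groups were far apart and the samples within each were close, with the WT mean 3.05 times the KI mean. The log2 fold change was -1.35 (SE 0.077, 95% interval -1.56 to -1.15), which rests on about 416, 251, 142 and 144 reads in WT 1, WT 2, KI 1 and KI 2. It ranked 1 of all 18436 genes by p, and its adjusted p of 0.197 by limma missed the threshold of 0.1. With genes of at least 10 reads in every sample only, Hmgn2 was called (adjusted p = 0.0267 by limma), as it was without the mean-variance trend (adjusted p = 0.0749). Over all other settings tried, its log2 fold change lay between -1.58 and -1.30 with adjusted p-values of 0.184 to 0.721, except with the replicate block and the 10-read minimum together (adjusted p = 0.0135). Only 3 protein-coding tested genes outside the window had a larger difference in either direction.

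The mouse genome holds many near-identical copies of Hmgn2, most of them processed pseudogenes. In GENCODE M21 transcripts, 12 other genes matched Hmgn2 over at least 150 bases with at least 95% identity, and 7 of these are listed with values in at least 1 sample. The coding sequence of 273 bases is shown because reads from a stretch that is identical in several genes have more than 1 place of origin. It is identical, with 0 base differences, in Gm10282 (chr8:72304110-72305260) and Gm10182 (chr9:22321105-22321377), while Gm7125 differs from it at 7 bases. Hmgn2-ps1 has 0 base differences from another coding form of Hmgn2, of 279 bases. Hmgn2 and Gm7125 are printed 5′ to 3′ in the sense of the mRNA, with the differing bases in capitals.
Hmgn2: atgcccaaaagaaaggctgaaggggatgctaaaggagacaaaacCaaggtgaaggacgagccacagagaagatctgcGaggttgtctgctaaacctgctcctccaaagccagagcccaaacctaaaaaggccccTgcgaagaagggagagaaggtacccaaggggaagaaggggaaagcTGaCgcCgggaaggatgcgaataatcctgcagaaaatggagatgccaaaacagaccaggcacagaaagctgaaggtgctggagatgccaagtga
Gm7125: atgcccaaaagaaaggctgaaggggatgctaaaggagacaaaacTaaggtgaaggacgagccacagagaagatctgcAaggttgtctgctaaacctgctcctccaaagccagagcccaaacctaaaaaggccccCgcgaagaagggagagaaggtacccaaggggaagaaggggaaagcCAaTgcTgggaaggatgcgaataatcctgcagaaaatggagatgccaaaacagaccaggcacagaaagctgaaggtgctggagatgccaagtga

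The listed copies differed in how they ran across the samples. Gm10282, which shares 99.3% of 1151 bases with Hmgn2, was at 6.62 and 8.31 RPKM in WT and 7.5 and 8.43 RPKM in KI. Its groups overlapped. Gm10182 was at 0.136 and 0.310 RPKM in WT and 1.14 and 1.28 RPKM in KI. Gm7125 was not listed in WT 1 (taken as 0) and was at 0.415 RPKM in WT 2 and at 2.29 and 1.23 RPKM in KI. Both of these low genes were thus higher in both KI samples, opposite to Hmgn2, but at low levels. Reads worked out for them did not come out whole, for example 0.50 for Gm10182 in WT 1 and 5.5 for Gm7125 in WT 2. The exon lengths used may therefore not be those behind the deposited values. How many reads stand behind the values of Gm10182 and Gm7125 is thus not known. Hmgn2-ps1 (0.802 and 1.62 RPKM in WT, 3.74 and 1.44 RPKM in KI) had overlapping values. The same was true of Gm7931 (0.546 and 1.24 RPKM in WT, 1.02 and 1.72 RPKM in KI), Gm10357 and Hmgn2l6, which stayed below 2 RPKM in all samples. Only uniquely mapped pairs were counted, so pairs from identical stretches are left out of all these values, and how this bears on the values of Hmgn2 and its copies was not tested.

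**Figure D2:**
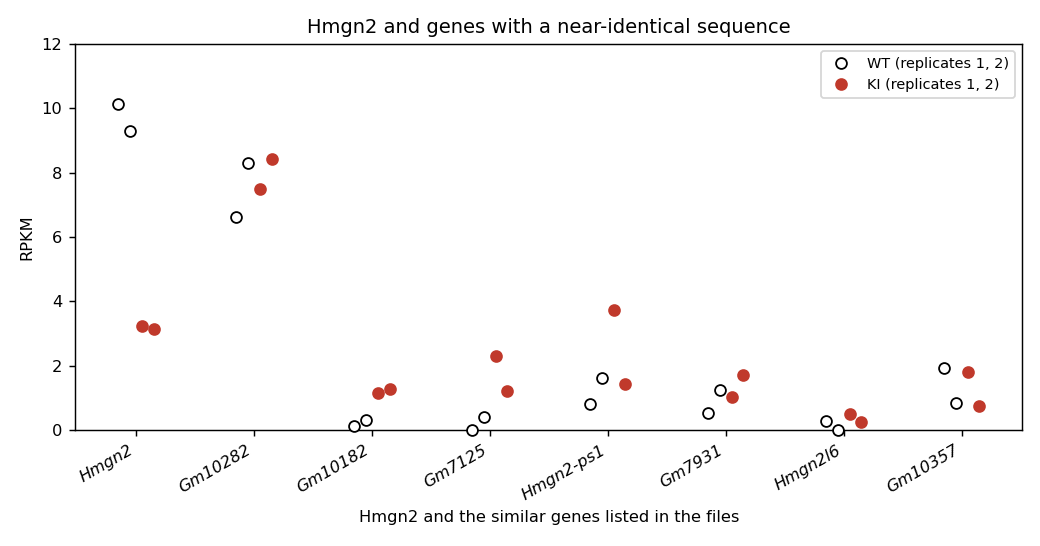
RPKM of Hmgn2 and of the 7 similar genes listed in the files, with open circles for the WT and filled circles for the KI samples (replicates 1 and 2 from left to right). Hmgn2 is near 10 RPKM in WT and near 3 RPKM in KI, Gm10282 is between 6.62 and 8.43 RPKM in all 4 samples, and the other copies are all below 4 RPKM.

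Of the 16 genes of transcription, chromatin and DNA, 3 (18.75%) were higher and 5 (31.25%), Hmgn2 among them, lower in both KI samples. Their median log2 fold change was -0.012. Shares over the protein-coding tested genes were 24.7% higher and 19% lower. The role lists are short, and their shares were not tested. Zfp46, a zinc finger gene and 1 of the 5 nearest neighbours on the lower side (chr4:136284683-136293942, -0.29 Mb), was at 11.5 and 12.3 RPKM in WT and 8.37 and 9.45 RPKM in KI. Its groups did not overlap, with a log2 fold change of -0.38 (SE 0.082, adjusted p = 0.378 by limma). Id3, an inhibitor of basic helix-loop-helix factors at -0.43 Mb, was at 8.24 and 7.84 RPKM in WT and 9.28 and 7.58 RPKM in KI, with overlapping values. Zbtb40 on the other side of Kdm1a (0.44 Mb) overlapped as well, at 0.954 and 1.02 RPKM in WT and 1.19 and 0.987 RPKM in KI. Trnp1, a nuclear protein of neural progenitors, had the highest level of this list. It was at 47.2 and 43.9 RPKM in WT and 58.4 and 49.6 RPKM in KI (log2 fold change 0.24, adjusted p = 0.520 by limma). Arid1a, a subunit of the BAF remodelling complex, was lower in both KI samples by a small margin, at 16.3 and 16.4 RPKM in WT and 15.9 and 15.5 RPKM in KI, a log2 fold change of -0.058. Spen, a corepressor of Notch signalling, was also lower in both, at 10.1 and 9.80 RPKM in WT and 9.73 and 8.61 RPKM in KI.

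Genes of cell-surface receptors, ligands and the extracellular matrix were the list with the highest median, 0.12 over 18 genes. In both KI samples 7 (38.9%) were higher and 4 (22.2%) lower, beside 24.7% and 19% of the protein-coding tested genes. None was called, nor was any other tested gene. Igsf21 encodes an immunoglobulin superfamily adhesion protein of inhibitory synapses (chr4:140026846-140246784, 3.56 Mb). It was at 7.99 and 9.27 RPKM in WT and 13.6 and 12.8 RPKM in KI, so that the KI mean was 1.53 times the WT mean with no overlap. The log2 fold change was 0.57 (SE 0.089, 95% interval 0.33 to 0.80, adjusted p = 0.307 by limma). Nbl1, a secreted antagonist of bone morphogenetic proteins at 2.51 Mb, was the most abundant of the list. Its level was 23.2 and 24.7 RPKM in WT and 31.5 and 29.8 RPKM in KI, and the difference exceeded the gap between samples of either group (log2 fold change 0.34, SE 0.059, adjusted p = 0.318 by limma). Wnt4, a Wnt ligand at 0.71 Mb, was at 2.06 and 1.78 RPKM in WT and 2.5 and 2.26 RPKM in KI (log2 fold change 0.21, adjusted p = 0.585 by limma). Both ephrin receptor genes next to Kdm1a on the higher side had close values. Ephb2 at 0.17 Mb was slightly lower in both KI samples, at 2.97 and 2.95 RPKM in WT and 2.71 and 2.77 RPKM in KI. Its log2 fold change was -0.083, with a 95% interval of -0.30 to 0.14. Epha8 at 0.37 Mb had overlapping values of 0.633 and 0.697 RPKM in WT and 0.664 and 0.823 RPKM in KI. The serotonin receptor gene Htr6, at 1.82 and 3.15 RPKM in WT and 2.67 and 2.97 RPKM in KI, overlapped too. Oprd1, the delta opioid receptor, was lower in both KI samples, at 4.13 and 4.70 RPKM in WT and 3.53 and 3.93 RPKM in KI (log2 fold change -0.20, adjusted p = 0.584 by limma). Ece1, the enzyme that activates endothelin, was higher in both, at 8.34 and 8.42 RPKM in WT and 9.17 and 10.1 RPKM in KI (log2 fold change 0.18, adjusted p = 0.522 by limma).

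The 14 genes of kinases, signalling adaptors and inhibitors had a median log2 fold change of -0.057. In both KI samples 4 (28.6%) were higher and 5 (35.7%) lower, beside 24.7% and 19% of the protein-coding tested genes. Phactr4, a regulator of protein phosphatase 1 and actin at -4.19 Mb, was at 2.65 and 2.54 RPKM in WT and 4.44 and 3.78 RPKM in KI. The KI mean was 1.59 times the WT mean, with a log2 fold change of 0.51 (SE 0.10, adjusted p = 0.360 by limma). Camk2n1, an inhibitor of the calcium/calmodulin-dependent kinase CaMKII, had the highest level of all 137 genes. It was at 106 and 107 RPKM in WT and 140.0 and 115 RPKM in KI (log2 fold change 0.25, adjusted p = 0.533 by limma). KI 1 was well above KI 2 here, and without KI 1 the log2 fold change was 0.11. Pdik1l, a protein kinase gene at -2.30 Mb, was lower in both KI samples, at 2.84 and 2.63 RPKM in WT and 1.74 and 2.08 RPKM in KI (log2 fold change -0.36, adjusted p = 0.479 by limma). Map3k6, a stress-responsive kinase, had the lowest mean level of the neighbours and met the expression minimum only in WT. Its values were 0.810 and 0.517 RPKM in WT and 0.166 and 0.363 RPKM in KI, from 11 to 50 reads. Pink1, the kinase that marks damaged mitochondria, was among the most abundant neighbours and its samples overlapped, at 89.6 and 95.8 RPKM in WT and 101 and 86.4 RPKM in KI. Rap1gap, which switches off the GTPase Rap1, was at 29.97 and 30.4 RPKM in WT and 34.3 and 32.8 RPKM in KI (log2 fold change 0.15, adjusted p = 0.490 by limma).

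**Figure D3:**
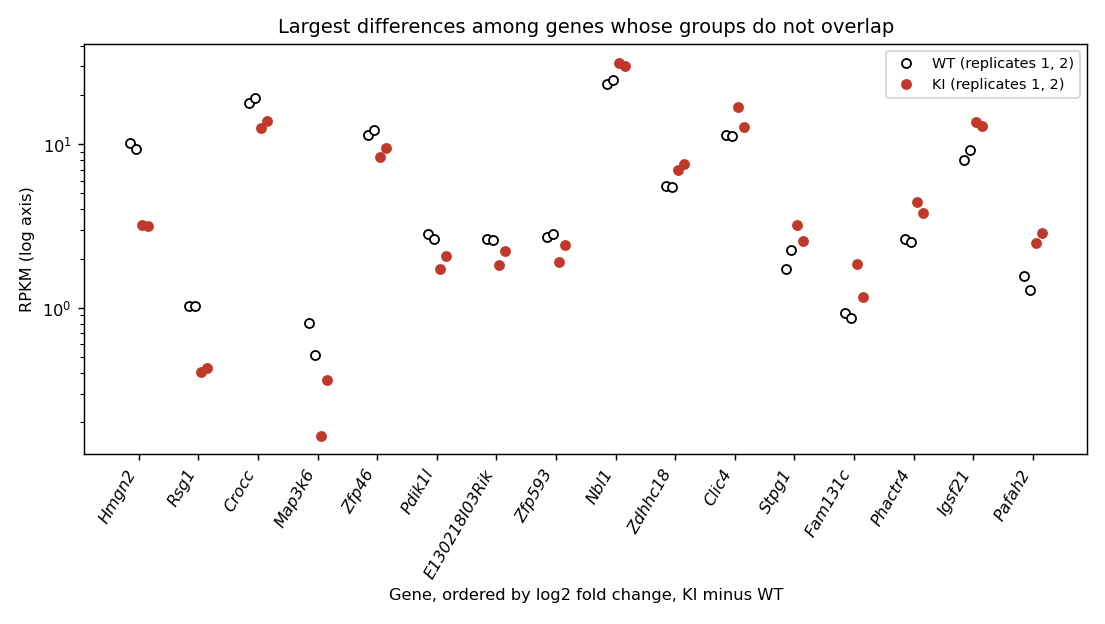
RPKM on a log axis of the 8 genes with the largest difference in each direction among those whose groups do not overlap, with open circles for the 2 WT and filled circles for the 2 KI samples. The gap between the groups is wide for Hmgn2 and Rsg1 and narrow for Stpg1, where WT 2 at 2.26 RPKM lies close to KI 2 at 2.56 RPKM.

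In the list of cytoskeleton, small GTPases and vesicle traffic, 6 of 20 genes (30%) were higher and 2 (10%) lower in both KI samples. The median was 0.045, and the shares of the protein-coding tested genes were 24.7% and 19%. Crocc encodes rootletin, the main protein of the ciliary rootlet (chr4:141016637-141060550, 4.46 Mb). It was at 17.9 and 19.1 RPKM in WT and 12.6 and 13.9 RPKM in KI, so that its WT mean was 1.39 times its KI mean with groups well apart. The log2 fold change was -0.45 (SE 0.072, 95% interval -0.64 to -0.26, adjusted p = 0.307 by limma). Nudc, a chaperone-like partner of the dynein motor that was named here after its values were seen, was at 56.0 and 58.6 RPKM in WT and 73.0 and 71.1 RPKM in KI. Its log2 fold change of 0.33 had a small error (SE 0.048, adjusted p = 0.307 by limma), and it has a processed pseudogene that shares 99.1% of 555 bases. Clic4, an intracellular chloride channel protein, was at 11.4 and 11.2 RPKM in WT and 16.8 and 12.8 RPKM in KI. KI 1 was again the higher KI sample, and the log2 fold change was 0.17 without it. Luzp1, the gene nearest to Kdm1a (-0.064 Mb), had overlapping values, with 16.6 and 16.9 RPKM in WT, 17.0 and 16.8 RPKM in KI and a 95% interval of the log2 fold change of -0.12 to 0.15. Asap3, an Arf GTPase-activating protein at -0.35 Mb, was lower in both KI samples, at 1.34 and 1.39 RPKM in WT and 1.17 and 0.871 RPKM in KI (log2 fold change -0.23, adjusted p = 0.608 by limma). Stmn1, the microtubule destabiliser stathmin, overlapped at 38.7 and 44.6 RPKM in WT and 43.9 and 41.9 RPKM in KI. Its processed pseudogene Gm11223 (chr4:69925630-69926079), which shares 97.6% of 460 bases with it, was at 33.0 and 38.4 RPKM in WT and 67.6 and 64.2 RPKM in KI, with groups well apart. Reads of the pair may not be told apart, and the bearing of this on the values of Stmn1 was not tested. Kif17, a kinesin motor of dendrites, had its highest value in KI 1 and its lowest in KI 2, at 6.87 and 7.12 RPKM in WT and 8.94 and 6.29 RPKM in KI.

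Mitochondrial, metabolic and transport genes formed the longest list, with a median of 0.028. In both KI samples 9 of 28 (32.1%) were higher and 5 (17.9%) lower, beside 24.7% and 19% of the protein-coding tested genes. Pafah2 encodes a phospholipase that breaks down platelet-activating factor and oxidised phospholipids (chr4:134396320-134427413, -2.16 Mb). Its level was 1.57 and 1.28 RPKM in WT and 2.5 and 2.85 RPKM in KI, from 41 to 154 reads. The KI mean was 1.88 times the WT mean, and the log2 fold change of 0.60 (SE 0.12, adjusted p = 0.350 by limma) was the highest of the 137 genes. Atpif1, the inhibitor of the mitochondrial ATP synthase, had the highest level of the list and the same mean in both groups. It was at 54.0 and 56.7 RPKM in WT and 56.6 and 54.1 RPKM in KI (95% interval of the log2 fold change -0.14 to 0.14). Padi2, a peptidylarginine deiminase at 4.35 Mb that was also named after its values were seen, was at 8.49 and 8.70 RPKM in WT and 11.1 and 10.8 RPKM in KI (log2 fold change 0.32, SE 0.059, adjusted p = 0.340 by limma). Atp13a2, a lysosomal polyamine transporter, was at 24.0 and 26.9 RPKM in WT and 28.2 and 27.05 RPKM in KI, where the upper WT and the lower KI value nearly met. Alpl, tissue-nonspecific alkaline phosphatase, had overlapping values of 1.63 and 2.08 RPKM in WT and 1.66 and 1.38 RPKM in KI.

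RNA processing and translation genes were balanced, with 3 higher and 3 lower of 14 (21.4% each) and a median of -0.013. The shares of the protein-coding tested genes were 24.7% and 19%. Trnau1ap, which works with the selenocysteine tRNA, was at 3.22 and 4.01 RPKM in WT and 4.23 and 5.06 RPKM in KI, with the upper WT and the lower KI sample close together. Eif4g3, a scaffold of translation initiation and the most abundant gene of the list, was slightly lower in both KI samples, at 34.7 and 34.4 RPKM in WT and 32.8 and 32.2 RPKM in KI (log2 fold change -0.089, adjusted p = 0.587 by limma). Hnrnpr, an RNA-binding protein gene at -0.24 Mb, was at 9.30 and 9.31 RPKM in WT and 8.03 and 9.48 RPKM in KI and overlapped. Among splicing factors, Srsf4 was slightly higher in both KI samples (20.4 and 20.4 RPKM in WT, 21.7 and 21.5 RPKM in KI), while Srsf10 overlapped (8.91 and 8.14 RPKM in WT, 7.71 and 8.49 RPKM in KI). Gm5446, a processed pseudogene of Srsf10, shares 98.5% of 772 bases with it and was lower in both KI samples, at 6.19 and 6.37 RPKM in WT and 5.15 and 5.30 RPKM in KI. Zfp593, a zinc finger gene of ribosome assembly, and E130218I03Rik lie on opposite strands and share 1627 exon bases, 77.9% of the exons of Zfp593. Strand-specific counting is not stated in the sources used here, so reads of the pair cannot be told apart. Both were lower in both KI samples. Zfp593 was at 2.71 and 2.82 RPKM in WT and 1.90 and 2.43 RPKM in KI. E130218I03Rik was at 2.63 and 2.61 RPKM in WT and 1.83 and 2.24 RPKM in KI.

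In the ubiquitin and protein quality list, both KI samples were above WT for 1 of 8 genes (12.5%) and below WT for 2 (25%). The shares of the protein-coding tested genes were 24.7% and 19%. The 1 higher gene was Zdhhc18, a palmitoyltransferase at -2.95 Mb and not a ubiquitin gene. It was at 5.54 and 5.49 RPKM in WT and 6.99 and 7.62 RPKM in KI (log2 fold change 0.35, SE 0.074, adjusted p = 0.368 by limma). Ubr4, a very large ubiquitin ligase, had groups that were close but did not overlap, at 20.6 and 20.9 RPKM in WT and 19.5 and 19.0 RPKM in KI. Outside all 7 lists were 19 genes, 6 of them (31.6%) higher and 4 (21.1%) lower in both KI samples. Rsg1, at 4.64 Mb, is a small GTPase of cilium formation that the list with small GTPases leaves out. It was at 1.03 and 1.02 RPKM in WT and 0.407 and 0.427 RPKM in KI. The WT mean was 2.46 times the KI mean, but only 11 to 26 reads stand behind each value and the gene met the expression minimum in WT alone (log2 fold change -0.52, SE 0.12, adjusted p = 0.399 by limma). Stpg1 was at 1.73 and 2.26 RPKM in WT and 3.21 and 2.56 RPKM in KI. Fam131c, with 11 to 38 reads, was at 0.936 and 0.870 RPKM in WT and 1.84 and 1.17 RPKM in KI, KI 1 being the higher KI sample. In all, 4 neighbours reached the minimum in 1 group only, Map3k6, Sfn and Rsg1 in WT and Sytl1 in KI. Their groups were bound to lie apart, and without them 38 of 133 neighbours were higher and 27 lower in both KI samples. The 106 neighbours outside the naming rule had log2 fold changes between -0.23 and 0.33, with a smallest adjusted p of 0.307 by limma. Apart from Nudc and Padi2, those of them described above were picked for their known roles after the values had been seen.

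**Figure D4:**
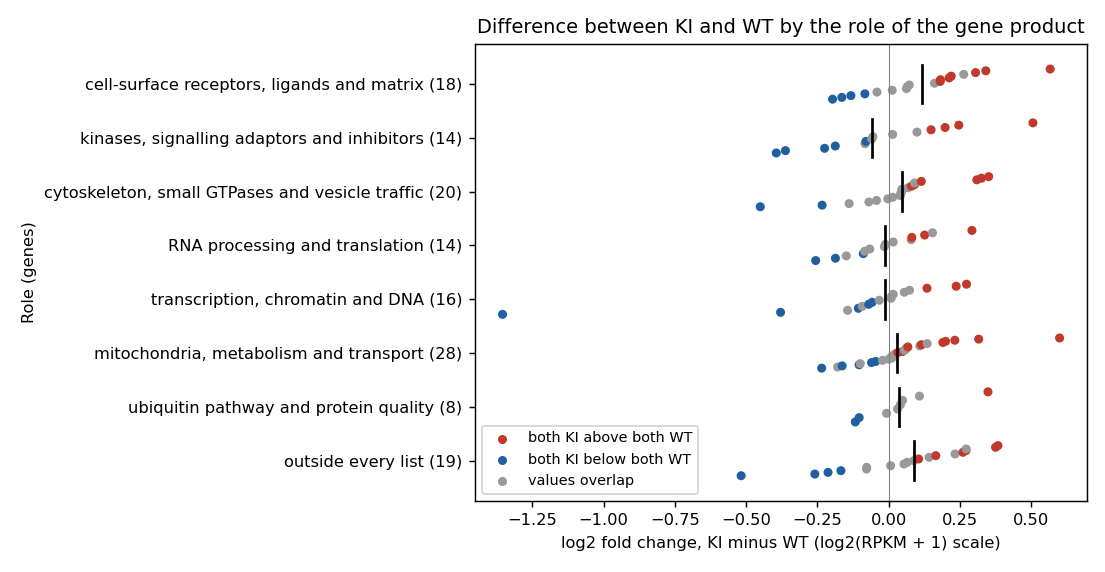
Log2 fold change (KI minus WT, log2(RPKM + 1) scale) of the 137 genes by the role of their product, each point a gene (red, both KI samples above both WT samples; blue, both below; grey, overlapping) and each black line the median of the list. Medians lie between -0.057 for kinases, signalling adaptors and inhibitors and 0.12 for receptors, ligands and matrix, and every list has points on both sides of 0.

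The neighbours were then set beside the rest of chromosome 4 by distance. Within 1 Mb of Kdm1a, 4 of 19 genes were higher and 4 lower in both KI samples, from 1 to 2.5 Mb 14 and 10 of 46, and from 2.5 to 5 Mb 21 and 16 of 72. From 5 to 10 Mb, outside the window, 30 of 78 genes (38.5%) were higher and 17 (21.8%) lower, and beyond 20 Mb 23.6% and 21.1% of 403. On the other chromosomes the shares were 24.5% and 19.0% of 12820 genes. The share of genes whose groups lay apart was therefore not highest next to Kdm1a. On the lower side of Kdm1a 83 neighbours had a median log2 fold change of 0.015, and on the higher side 54 had one of 0.056. Genes at the edge of the window were Spen at 4.93 Mb inside and Slc25a34 at 5.04 Mb outside.

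Small p-values before adjustment were also set out by distance. A limma p under 0.01, a limit taken after the values were seen, was reached by 11 of the 137 neighbours (8.03%), beside 1.47% of the protein-coding genes and 2.45% of all tested genes. The 11 were Hmgn2, Nudc, Igsf21, Crocc, Nbl1, Padi2, Pafah2, Phactr4, Zdhhc18, Zfp46 and Rsg1, of which 9 lay from 2.5 to 5 Mb away (12.5% of 72 genes). Rsg1 met the expression minimum in WT alone, and without such genes the count was 10 of 133 (7.52%). From 5 to 10 Mb the share was 1.28%, from 10 to 20 Mb 0.803% and on the other chromosomes 1.40%. At p under 0.05 the neighbours numbered 19 (13.9%), beside 8% of the protein-coding genes and 9.62% of all tested genes. Neighbouring genes share the same 4 samples and stretch of chromosome and are not independent, so these shares are given without a test. Leaving out 1 sample lowered the count at p under 0.01 to between 1 and 5, with 0.336% to 0.774% of the protein-coding genes at the same limit. It was 1 without KI 1, 3 without WT 1, 4 without WT 2 and 5 without KI 2.

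**Figure D5:**
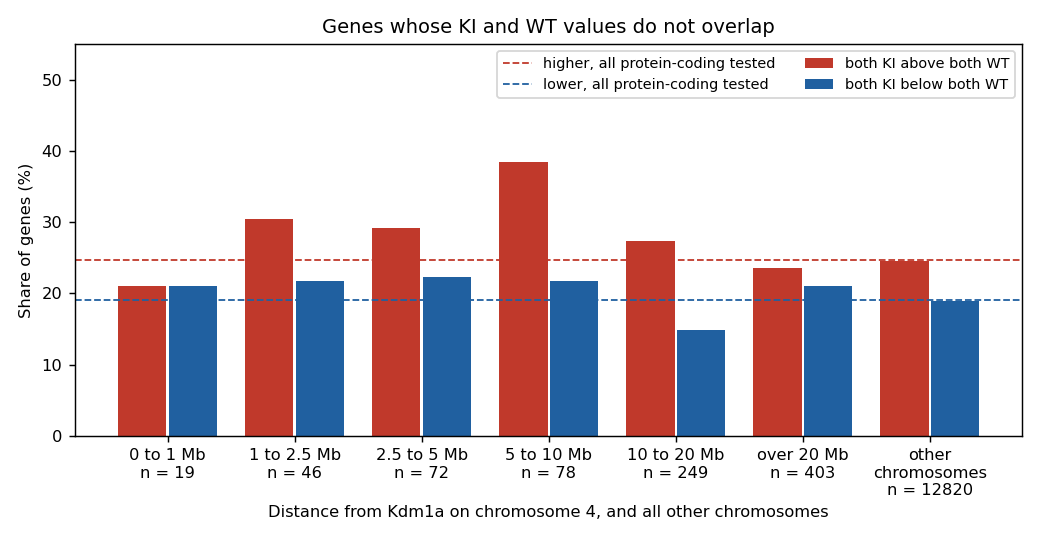
Share (%) of protein-coding tested genes with both KI samples above (red) or below (blue) both WT samples, by distance from Kdm1a on chromosome 4 and on all other chromosomes, with the shares of all protein-coding tested genes as dashed lines (24.7% and 19%). The highest red bar, 38.5%, is at 5 to 10 Mb, and the bars within 1 Mb are equal at 21.1%.

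Promoters were compared because LSD1 phosphorylated at this serine has been studied with the clock factors that read the E-box, and because REST recruits LSD1 through CoREST. RefSeq promoters (GRCm38.p6; 250 bases before to 50 after the start) were found for 122 of the 137 genes, 163 promoters in all. The E-box CACGTG, which reads the same on both strands, was in 17 of the 163 (10.4%), from 16 genes, and in 7.15% of 32851 promoters of the table. The left part of the REST site (TTCAGCACC) and its right part, searched on both strands, were in 0 of the 163, and in 0.371% and 0.137% of the table. The 250 bases upstream of the start are given for Hmgn2 (chr4:133967992-133968241) and, as a gene with a difference in the other direction and no match, for Igsf21 (chr4:140246812-140247061). Both lie on the minus strand and are printed 5′ to 3′ toward the gene, with the E-box in capitals.
Hmgn2: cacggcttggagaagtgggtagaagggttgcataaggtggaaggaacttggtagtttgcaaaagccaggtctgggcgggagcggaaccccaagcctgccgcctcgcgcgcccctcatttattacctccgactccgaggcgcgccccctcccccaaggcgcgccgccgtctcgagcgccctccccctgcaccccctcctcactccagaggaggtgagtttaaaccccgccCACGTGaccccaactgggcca
Igsf21: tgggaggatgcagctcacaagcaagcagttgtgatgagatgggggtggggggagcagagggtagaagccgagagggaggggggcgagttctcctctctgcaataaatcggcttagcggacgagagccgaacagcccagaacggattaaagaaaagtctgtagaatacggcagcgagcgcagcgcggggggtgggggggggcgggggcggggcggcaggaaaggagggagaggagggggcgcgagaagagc

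In Hmgn2 the E-box lay close to the start used. That start and the printed bases lie inside the annotated gene (chr4:133964738-133968650), not at its outer end. Crocc has 2 starts in the table, and the E-box was before the one inside the annotated gene and not before the other. Of all 16 genes with an E-box, 3 were higher and 6 lower in both KI samples and 7 overlapped, with a median log2 fold change of 0.034, beside 24% higher and 18.1% lower among all tested genes. Usage of these starts in the samples was not measured, and a match is a description of letters only.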

How the data were processed

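Poly(A) RNA from hippocampus was sequenced as read pairs. Per the labels and the study's methods, the authors used GSNAP and the mm10 genome and retained unique proper pairs. They deposited RPKM per gene of Ensembl release 74, with 1 file per sample. The study tested read counts. As the deposited values are RPKM, limma (version 3.58.1, R 4.3.3) was used here on log2(RPKM + 1) with a mean-variance trend, over the 18436 genes that reached 0.5 RPKM in 2 or more samples, with Benjamini-Hochberg adjustment over all of them. A fold change on this scale understates that of low genes. A gene not listed in a sample was set to 0. Positions, exon lengths and copies (BLAST 2.17.0) came from GENCODE M21. Reads per gene were worked out from RPKM, exon length and depth, came out whole within 0.1 reads in all samples for 131 of the 137 genes, and were used for the 10-read minimum and to give the depth behind a value, which covers counting error only. Named genes were the 5 nearest on each side of Kdm1a, the 8 with the largest difference in each direction among those not overlapping, and in each role list the most abundant gene and the one with the largest difference. Other pseudocounts, filters, scalings, windows, the replicate block and each sample left out were tried as alternatives. The code was tested on simulated data. The genes, role lists and alternatives were chosen with earlier results of these data known. A few single-gene values are not reported here.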

Additional observations from a re-analysis of the deposited data

How the results depend on the processing

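The count of genes called over the whole table, 0 in the reported fit, was 1 with at least 10 reads in every sample, 20 without the mean-variance trend (17 higher, 3 lower) and 51 (42 higher, 9 lower) with the replicate block together with the 10-read minimum. Among the neighbours of Kdm1a the count was 1, Hmgn2, under each of these 3 settings. With the replicate block alone no gene was called, and the adjusted p of Hmgn2 was 0.359. Deviations of samples with the same number had a correlation of -0.0249 over 18436 genes. With 2 samples per group, this value cannot settle whether the numbers pair the samples. The median log2 fold change of the neighbours was 0.0099 after quantile normalization, where that of all genes was -0.0093. The neighbours higher and lower in both KI samples numbered 33 and 33 after quantile normalization and 35 and 33 after TMM scaling. Shares over all genes under these scalings are not given here. Without such scaling, genes within 2.5 Mb numbered 18 higher and 14 lower of 65, and within 10 Mb 69 and 47 of 215. The shares of the protein-coding tested genes were 24.7% and 19%. Leaving out each sample in turn gave 50 to 64 higher and 40 to 50 lower, with medians of 0.0074 to 0.032. With 1 sample left in a group, any gene more easily has groups that lie apart, so these counts cannot be set beside those from all samples. Of 372 values of the 31 named genes under alternatives, 362 kept their direction and side of the threshold and 7 changed direction. These were Atpif1 at -0.022 (quantile), -0.015 (TMM) and -0.035 to 0.035 with a sample left out, and, with 1 sample left out at a time, Id3 (-0.075 to 0.19), Hnrnpr (-0.19 to 0.024) and Epha8 (-0.00052 to 0.13). The count at p under 0.01 was 7 (5.11%) to 13 (10%) under the alternatives that kept all samples, which were run on it after the data were seen. Of the protein-coding genes, 0.913% to 2.58% reached the same limit under them. The cause of these differences was not tested. WT 2 had the fewest reads, 8.83 M, and its low values are the least precise.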
